A study of Zea mays with 18 samples.

Results

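Stem transcriptomes of a middle-height and a low maize (Zea mays) hybrid were compared over 3 stages of growth: jointing, when internodes begin to extend, big flare, before the tassel shows, and tasseling. The middle hybrid was the cross Dan 598xCML444 and the low hybrid Dan 598xFAPW, so both carry the parent Dan 598 and differ in the other parent. The comparison took the 6 middle libraries and the 6 low libraries by their labels, 12 of the 18 libraries of the series. The other 6 libraries came from a high hybrid with the same shared parent, and they entered the estimate of the spread. Each hybrid had 2 libraries per stage, all labelled as stem, and the labels do not say whether these came from separate plants. The p-values therefore measure a spread among libraries that may be technical. With 1 hybrid for each height class, height and genotype cannot be told apart.

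Maize height is set by the number of internodes and by how far their cells divide and elongate before their walls harden. Gibberellins and brassinosteroids promote this elongation, DELLA proteins restrain gibberellin responses, and phytochrome B limits elongation in light. Later in development, cellulose, xylan and lignin are laid down in the secondary walls of the stem. Maize lines also differ in gene content, and a gene of one line can be missing from another.

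Values were the authors' FPKM, fragments scaled by transcript length and library size, so levels can be set side by side between genes. The files hold no read counts, and absolute depth is unknown. Low values stepped in whole fragments, and from these steps the relative depth was 0.458 to 1 in the low and 0.447 to 0.951 in the middle libraries. Between 20758 and 22708 genes reached 1 FPKM in a low library, and between 21002 and 22320 in a middle library. The first principal component of the 12 libraries set the tasseling stems apart, and the second set all 6 low libraries apart from all 6 middle ones. Replicates correlated at 0.9 to 0.941 on the log2(FPKM + 1) scale across genes, which are not independent. Middle and low libraries of one stage correlated at 0.867 to 0.915. Low jointing 2 and low big flare 1 were nearer to each other (0.914) than to their own replicates, and low big flare 2 was nearest to middle big flare 1 (0.915).

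**Figure D1:**
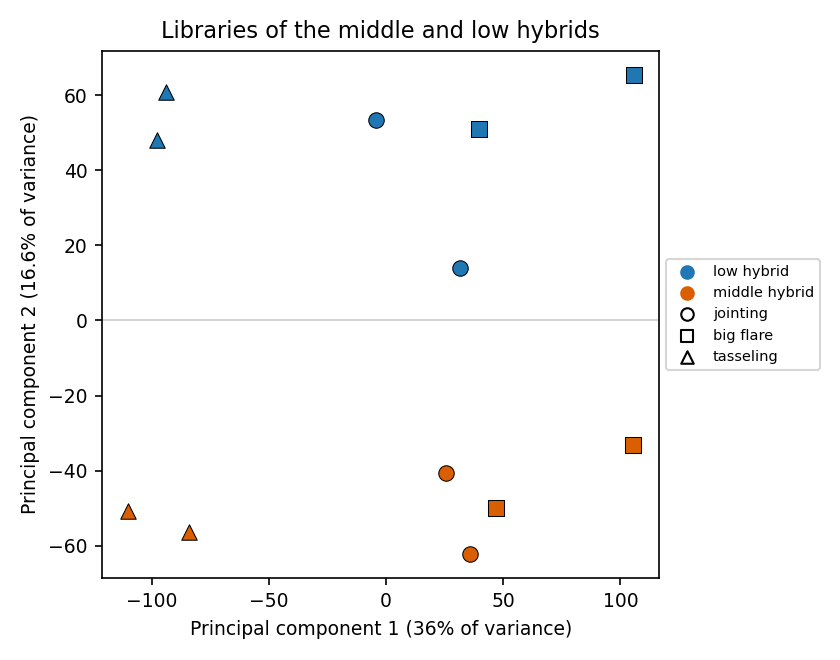
The 12 middle and low libraries on the first and second principal components of log2(FPKM + 1), which held 36% and 16.6% of the variance. Colour gives the hybrid and shape the stage. The low libraries lie above 0 on the second component and the middle libraries below it.

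Some stem markers were present in every library of both hybrids. The homeotic gene knotted-1 (Zm00001d035439), which is active in shoot meristems, ranged from 6.05 to 24 FPKM over the 12 libraries. Brittle stalk 2 (Zm00001d047276), needed for cellulose order in secondary walls, ranged from 52.1 to 1175 FPKM, and cellulose synthase 11 (Zm00001d043477) from 47.9 to 774 FPKM. Of 57 KNOX and homeobox genes, 28 had a median of 10 FPKM or more over the 12 libraries. So did 14 of 28 secondary wall and xylem, 18 of 48 lignin and 15 of 19 cellulose synthase genes. The secondary wall NAC factors 2, 4, 5, 6 and 7 were low, with medians of 0.38 to 3.52 FPKM. Genes of other tissues were also read. Of 66 photosynthesis genes, 53 had a median of 10 FPKM or more, against 2 of 6 root markers, 3 of 10 pollen and anther markers and 6 of 24 genes named as MADS-box factors, a family with floral and other members.

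Over the mean of the 3 stages, 1856 of 26792 genes passed the threshold (6.93%), of which 702 were higher (2.62%) and 1154 lower (4.31%) in the middle hybrid. The test was limma's moderated test on log2(FPKM + 1) with Benjamini-Hochberg adjustment and a threshold of 0.05. Genes that were higher in the middle hybrid changed by a median of 1.26 log2 units, and 129 of them by at least 2. Among genes that were lower, the median size was 1.29, and 259 changed by at least 2. All 6 middle libraries lay above all 6 low libraries for 230 genes (0.858%), and the reverse held for 588 genes (2.19%). Of the 1856 genes, 1756 (94.6%) had the same sign at every stage, a share raised by calling them on the mean of those stages. With median-of-ratios scaling 811 genes were higher and 1091 lower, and with quantile normalization 821 and 1138. The median difference of all genes was -0.038, against 0.013 and 0.003 with these scalings. Without low jointing 2 and low big flare 1, 510 genes were higher and 1025 lower. Leaving out 1 library gave 459 to 678 higher and 843 to 1167 lower, and the 459, with 978 lower, came without low tasseling 1.

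**Figure D2:**
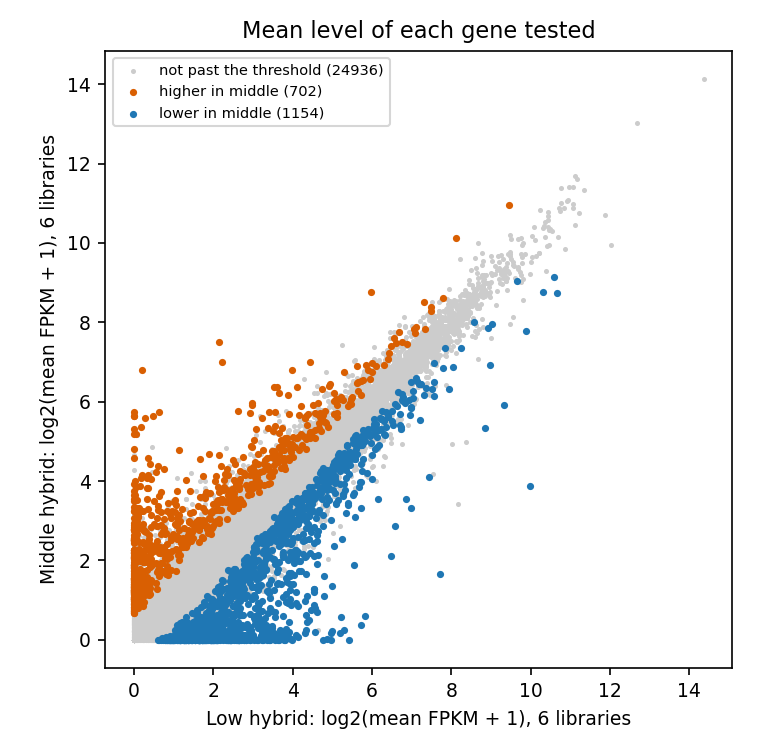
Mean level of each of the 26792 genes tested in the low hybrid (horizontal) and the middle hybrid (vertical), as log2(mean FPKM + 1) over 6 libraries. Orange marks the 702 genes that were higher and blue the 1154 that were lower in the middle hybrid, and many of both lie along an axis, near 0 in the other hybrid.

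Several of the largest increases were genes that the low stems hardly expressed. An actin-depolymerizing factor 2-like gene (Zm00001d034326), of a family that severs actin filaments, was listed at 0 in all 6 low libraries and ran from 21.3 to 50.1 FPKM (median 36.2) in the middle libraries (adjusted p = 7.22e-09). It was at most 0.32 FPKM in the high hybrid, so it passed the filter of 1 FPKM in 2 libraries only through the middle libraries. Its p-value is therefore no separate support for the high values there. A cysteine protease match (BGI_novel_G000791) was likewise listed at 0 in every low library and ran from 25.5 to 98.2 FPKM in the middle ones (adjusted p = 2.57e-07). The groups did not overlap for either gene.

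A subunit of the respiratory NADH-ubiquinone oxidoreductase (Zm00001d009803) was at most 0.78 FPKM in low stems and at 30.5 to 56.9 (median 36.6) in middle stems, a difference of 5.19 ± 0.22 log2 units (SE, adjusted p = 2.35e-08). A homolog of the translation factor SUI1 (Zm00001d035710), which helps select the start codon, was at most 1.33 FPKM in low and at 9.4 to 103 (median 43.0) in middle stems (5.05 ± 0.31, adjusted p = 3.67e-07). A membrane protein match (BGI_novel_G000965) had 2.41 FPKM in low tasseling 2, was listed at 0 in the other low libraries, and ran from 19.2 to 74.8 in the middle (5.24 ± 0.30, adjusted p = 1.54e-07). For these 3 genes every middle library exceeded every low one, and the high hybrid also expressed them, from 17.8 FPKM upwards. Zm00001d050635, a peptidyl-prolyl isomerase match and so a likely protein folding helper, was graded. Low libraries had 0 to 1.94 FPKM (median 0.23), middle libraries 2.22 to 121 (median 29.5) and high libraries 239 to 462, and the middle minus low difference was 4.43 ± 0.48 (adjusted p = 5.75e-05).

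The wound-induced serine protease inhibitor Zm00001d008548 was at 0 to 13.9 FPKM (median 1.3) in low and at 5.61 to 635 (median 36.4) in middle stems. Both big flare libraries of the middle hybrid were the high ones (635 and 351 FPKM), and 4 of 6 middle libraries exceeded every low library (4.34 ± 0.79, adjusted p = 0.00406). A pectinesterase gene (Zm00001d016907), of enzymes that demethylate wall pectin, was less regular. It read 206 and 139 FPKM in middle jointing, 0 and 239 in middle big flare and 79.7 and 0 in middle tasseling libraries, against at most 0.87 in the low (4.69 ± 1.19, adjusted p = 0.0317). That call was lost, with adjusted p between 0.0573 and 0.0765, without any 1 of the 6 low libraries, either middle jointing library or middle tasseling 1. It was also lost with a pseudocount of 0.1, with the 12 libraries alone or without low jointing 2 and low big flare 1 (0.00105 to 0.12 over the alternatives).

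Zm00001d028557, which matches class I heat shock protein 3, one of the small chaperones, ran from 112 to 417 FPKM (median 153) in low stems and from 0 to 9.86 (median 0.215) in middle stems. The difference was -6.59 ± 0.49 log2 units (adjusted p = 1.71e-06), with no overlap. A Na+/H+ antiporter (Zm00001d028330), which exchanges sodium for protons across membranes, fell from 33.2 to 78.6 FPKM in low stems to 0.07 to 0.6 in middle stems (-5.30 ± 0.18, adjusted p = 6.75e-09). The kinase gene SAPK10-like (Zm00001d011604), of the SnRK family of abscisic acid signalling, had 23.8 to 49.2 FPKM in low and at most 1.17 in middle libraries (-4.64 ± 0.20, adjusted p = 2.43e-08). Zm00001d043649, a match of the histone methyltransferase SUVR5, had 15.5 to 33.6 FPKM in low and at most 0.59 in middle libraries (-4.35 ± 0.18, adjusted p = 1.92e-08). None of these groups overlapped, and the 4 genes also stayed at or below 3.32 FPKM in every high library.

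Some genes that were low in the middle hybrid were on in the high one. APx2, a cytosolic ascorbate peroxidase that removes hydrogen peroxide (Zm00001d007569), was at 13.5 to 54.6 FPKM (median 27.9) in low stems and listed at 0 in 5 middle libraries and at 0.95 in middle tasseling 2 (-4.71 ± 0.23, adjusted p = 6.85e-08). In the high hybrid it ran from 25.7 to 65.4 FPKM. A mini zinc finger gene (Zm00001d023289) was listed at 0 in all 6 middle libraries and ran from 5.25 to 121 FPKM (median 31.9) in low and from 4.02 to 35.6 in high libraries (adjusted p = 1.57e-05 for middle against low). The Bowman-Birk type wound-induced proteinase inhibitor gene Zm00001d040029 was at 664 and 2.94 FPKM in the low big flare libraries and at 275 to 2766 in the other 4 low libraries. It was at 1.41 to 34 (median 14.1) in the middle libraries, so 5 of 6 low libraries exceeded every middle one (-5.12 ± 1.01, adjusted p = 0.00723). The ribosomal gene Zm00001d053635, a match of the small subunit protein S8, was listed at 0 in the 4 middle libraries of jointing and big flare and reached 35.5 FPKM at tasseling, against 21.2 to 239 in low stems (-5.04 ± 0.76, adjusted p = 0.000966). Its level in high tasseling 1 was 75 FPKM, while the remaining 5 libraries of that hybrid had 0.

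**Figure D3:**
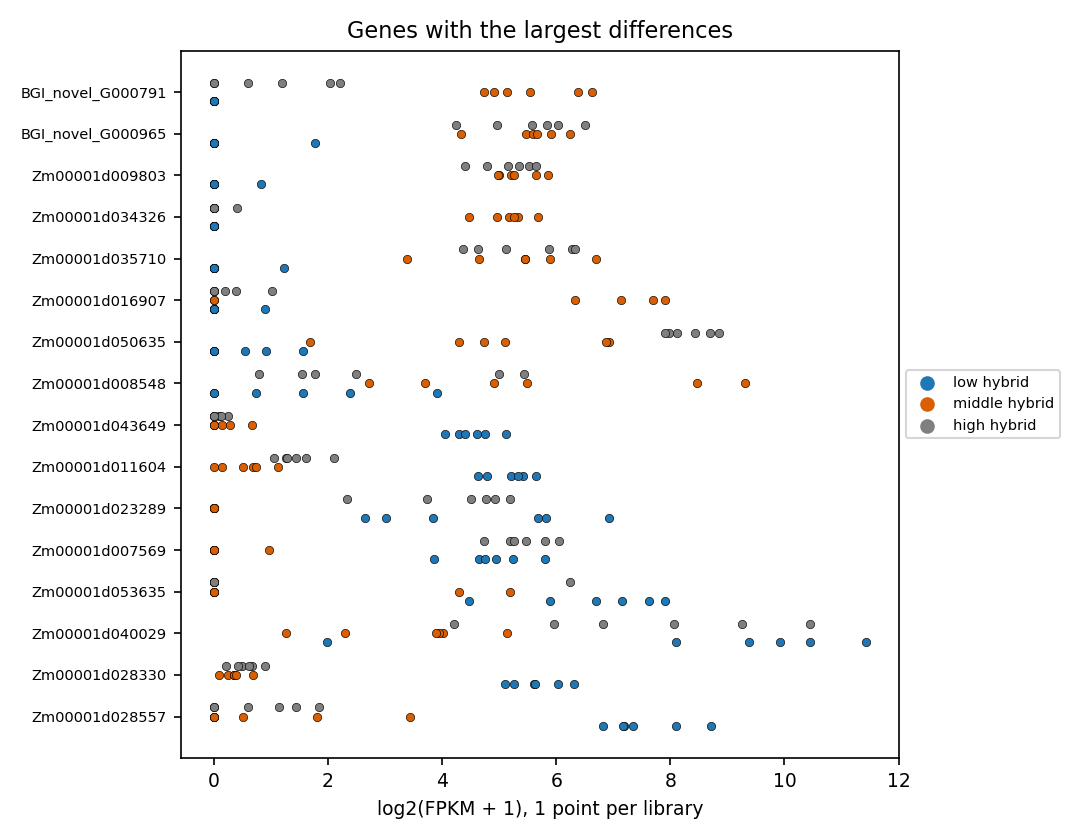
Level of the 8 genes with the largest increase and the 8 with the largest decrease in the middle hybrid, as log2(FPKM + 1), with 1 point per library. Rows are ordered by the middle minus low difference, and grey points give the high hybrid for reference. Most rows show 1 hybrid near 0, and the rows of Zm00001d016907, Zm00001d008548, Zm00001d053635 and Zm00001d040029 overlap.

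A stricter on and off contrast required under 0.5 FPKM in all 6 libraries of 1 hybrid and at least 5 in all 6 of the other. It found 11 genes on in the middle and 30 on in the low hybrid. In the high hybrid, 3 of the 11 and 19 of the 30 were also under 0.5 FPKM in every library, and 1 and 2 of them were at 5 or more in every library. An aspartic proteinase nepenthesin-1 match (Zm00001d006525) averaged 11.5 ± 4.41 FPKM (SD, n = 6) in middle stems and was listed at 0 in low stems. A 26S proteasome subunit 14 homolog (Zm00001d052648), part of the lid of the protein-degrading complex, averaged 10.4 ± 3.29 FPKM in middle stems and was also listed at 0 in low stems. On in the low hybrid were a cytosolic isocitrate dehydrogenase-like gene (Zm00001d021770, 19.2 ± 4.34 FPKM against 0.182 ± 0.151), a pirin-like gene (Zm00001d008595, 14.2 ± 12.4 against 0.0333 ± 0.0817) and the receptor-like kinases PERK1, Zm00001d040368 (13.9 ± 3.41 against 0.125 ± 0.140) and Zm00001d021728 (16.1 ± 9.40 against 0.0833 ± 0.122). These 6 genes were chosen after their values were seen. A sodium/hydrogen exchanger 2 gene (Zm00001d021844), chosen in the same way, averaged 19.7 ± 4.72 in low and 0.365 ± 0.124 in middle stems.

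Abundant genes also differed, measured by the change in mean FPKM. Metallothionein-like protein 2A (Zm00001d039914), of a family of metal-binding proteins, was at 146 to 782 FPKM (median 453) in low stems and at 10.3 to 92.7 (median 24.5) in middle stems (-3.61 ± 0.28 log2 units, adjusted p = 2.43e-06). The 60S ribosomal protein L31 gene Zm00001d017850 was at 663 to 1221 FPKM (median 952) in low and 111 to 306 (median 234) in middle stems (-2.14 ± 0.25, adjusted p = 0.000116). Neither gene's groups overlapped, and the high hybrid had 18.6 to 94.6 and 138 to 344 FPKM of them.

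In the other direction, the translationally-controlled tumor protein gene (Zm00001d014954), a conserved growth-associated protein, was at 126 to 398 FPKM (median 301) in low and 190 to 1775 (median 1107) in middle stems. The 190 FPKM belonged to middle jointing 2, and the other 5 middle libraries exceeded every low one (1.82 ± 0.36, adjusted p = 0.00723, or 0.0586 without low jointing 2 and low big flare 1, with adjusted p between 3.81e-05 and 0.0586 over the alternatives). Vignain (Zm00001d031971), a papain-type cysteine protease, had 7.78 to 211 FPKM (median 18.7) in low and 29.9 to 1324 (median 249) in middle stems. Its levels were highest at big flare in both hybrids, with 211 and 108 FPKM in the low against 729 and 1324 in the middle (2.74 ± 0.58, adjusted p = 0.011). Over the alternatives its adjusted p ran from 0.00164 to 0.0544, and it was over the threshold with the 12 libraries alone and without low jointing 2 and low big flare 1.

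Other abundant genes were close to the threshold. Protochlorophyllide reductase1 (pcr1, Zm00001d001820), a chlorophyll synthesis enzyme, was at 219 and 191 FPKM in the low and at 623 and 693 in the middle hybrid at tasseling (0.95 ± 0.24 over the stages, adjusted p = 0.0336). The call was lost without any 1 of the 12 libraries other than middle jointing 1 (0.0547 to 0.0898), with the 12 libraries and additive terms for hybrid and stage, or without low jointing 2 and low big flare 1 (0.00534 to 0.131 over the alternatives). A stress responsive protein gene (Zm00001d022516) ran from 101 to 3827 FPKM in low and 16.6 to 1019 in middle stems (-2.21 ± 0.57, adjusted p = 0.0342). That call was lost (0.0539 to 0.107) without low jointing 1, either low big flare library, low tasseling 2, either middle jointing library, either middle big flare library or middle tasseling 1. It was also lost with no filter or without low jointing 2 and low big flare 1 (0.0155 to 0.107 over the alternatives). A lipid binding protein precursor gene (Zm00001d003757) ran from 209 to 4506 FPKM in low and 188 to 1087 in middle stems (-1.12 ± 0.29, adjusted p = 0.0338). It was lost (0.0511 to 0.0965) without low jointing 2, low big flare 1, either low tasseling library, either high big flare library, either middle jointing or tasseling library, or middle big flare 1. It was also lost with no filter, with median-of-ratios scaling, with the 12 libraries alone or without low jointing 2 and low big flare 1 (0.00742 to 0.12 over the alternatives).

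Gene lists were read against the 6.93% of all genes that passed, and against the 45.3% of all genes whose estimate was above 0 (median -0.04). Among defence genes, 11 of 61 disease resistance genes (18%) passed, 5 higher and 6 lower. These encode immune receptors, occur in clusters of similar copies, and reads can be split between copies. With quantile normalization 6 were higher and 4 lower. The receptor gene Zm00001d023303 (an RPP13-like match) had 2.28 to 4.25 FPKM in low and 9.1 to 24.4 in middle stems, with no overlap (2.01 ± 0.20, adjusted p = 2.47e-05), and at most 0.73 in the high hybrid. Another RPP13-like gene (Zm00001d024973) had 0.83 to 3.11 FPKM in low and at most 0.1 in middle stems (-1.39 ± 0.15, adjusted p = 4.15e-05). It averaged 0.0283 FPKM in the high hybrid, so it passed the filter only through the low libraries. Its p-value is therefore no separate support for the values there.

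Of 64 pathogenesis-related genes, 4 passed (6.2%), all higher in the middle hybrid. A glucan endo-1,3-beta-glucosidase gene (Zm00001d006776), of enzymes that cut fungal and plant glucans, was listed at 0 in the 4 low libraries of jointing and big flare and read 2.12 and 5.81 FPKM at low tasseling. In the middle hybrid it ran from 1.15 to 20.2 FPKM, above its stage's low libraries throughout (2.15 ± 0.37, adjusted p = 0.00276). A second such gene (Zm00001d029313) had 6.05 to 21 FPKM in low and 14.7 to 29.3 in middle stems (0.95 ± 0.16, adjusted p = 0.00268). Of 14 proteinase inhibitor genes, 1 was higher and 1 lower, the wound-induced pair described above.

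Benzoxazinoids are the hydroxamic acid defence compounds of young maize, and 2 of their 15 genes passed, both lower in the middle hybrid. Benzoxazinone synthesis2 (Zm00001d048710), the first cytochrome P450 of the pathway, had 573 and 565 FPKM in low jointing, 200 and 170 in low big flare and 32.1 and 45.4 in low tasseling libraries. The middle hybrid had 289 and 210, 90.7 and 91.4, and 10.8 and 9.55 FPKM at these stages. The low libraries were above the middle ones at each stage (-1.34 ± 0.24, adjusted p = 0.00387). Benzoxazinless1 (Zm00001d048709), which makes the indole for the pathway, had 1113 and 817 FPKM in low against 548 and 331 in middle jointing stems (-1.29 ± 0.34 over the stages, adjusted p = 0.0389). Its call was lost (0.055 to 0.114) without either low jointing library, either low big flare library, low tasseling 2, middle jointing 2, either middle big flare library or middle tasseling 1. It was also lost with no filter, with the 12 libraries alone or without low jointing 2 and low big flare 1, and its adjusted p ran from 0.00643 to 0.114 over the alternatives.

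Detoxification and flavonoid genes moved singly. Of 46 glutathione transferase genes, 2 were higher and 1 lower. The lower one, parA (Zm00001d018809), had 22.8 to 70.9 FPKM in low and 7.21 to 26.8 in middle stems (-1.55 ± 0.23, adjusted p = 0.000751). Of 56 flavonoid genes, 3 were higher and 2 lower, and an isoflavone reductase homolog (Zm00001d041746) went from 12.6 to 51.8 FPKM in low stems to 57.5 to 133 in middle stems without overlap (1.62 ± 0.23, adjusted p = 0.000661).

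Ribosomal protein genes had 12 of 222 members past the threshold (5.4%), 10 lower and 2 higher in the middle hybrid, or 11 lower and 6 higher with median-of-ratios scaling and 11 and 5 with quantile normalization. Their median was -0.10, and 74 of 222 were above 0. Beside L31 and S8-like, 2 genes of the small subunit protein S4 fell. Zm00001d053283 had 7.67 to 16 FPKM in low and at most 1.11 in middle stems (-2.99 ± 0.23, adjusted p = 1.93e-06), and Zm00001d030106 had 11.6 to 30.4 in low and 1.51 to 4.86 in middle stems (-2.10 ± 0.22, adjusted p = 3.54e-05). Both higher members, chosen after their values were seen, were also S4 genes, Zm00001d016239 (1.84 ± 0.26, adjusted p = 0.000539) and BGI_novel_G000257 (2.12 ± 0.43, adjusted p = 0.00814). Near-identical copies can divide their reads, so the values of single S4 genes are uncertain.

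Chaperones and heat shock factors had 9 of 136 members past the threshold (6.6%), 2 higher and 7 lower, and a median of -0.11. Beside the small chaperone above, a mitochondrial-type dnaJ gene (Zm00001d029722), of the co-chaperones of HSP70, had 13.9 to 18.1 FPKM in low and 0.56 to 1.2 in middle stems (-3.28 ± 0.15, adjusted p = 5.02e-08). The high hybrid was at 0.76 to 1.21 FPKM for it. Transposon-derived genes had 19 of 158 members past the threshold (12%), 7 higher and 12 lower. A gag-pol match (BGI_novel_G001007) had 6.79 to 11.8 FPKM in low and at most 0.1 in middle stems (-3.29 ± 0.15, adjusted p = 4.92e-08). It was at most 0.03 FPKM in the high hybrid, so it passed the filter only through the low libraries. Its p-value is therefore no separate support for the values there. A transposon protein (Zm00001d043354) had 3.53 to 14.8 FPKM in low against at most 0.33 in middle stems (-2.96 ± 0.23, adjusted p = 2.83e-06).

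Cell division and replication genes had 85 members tested, with 1 higher, 3 lower and 25 above 0 (median -0.16). A cyclin-dependent kinase inhibitor 3-like gene (Zm00001d048837), of proteins that restrain the cell cycle, had 4.57 to 23.5 FPKM in low and 0.49 to 2.56 in middle stems (-2.21 ± 0.25, adjusted p = 8.24e-05). Cyclin-A2 (Zm00001d023732), which drives replication and mitosis, had 1.77 to 4.25 FPKM in low and at most 0.77 in middle stems (-1.46 ± 0.20, adjusted p = 0.000494). Neither overlapped between hybrids. Of 44 histone genes, 1 was higher and 3 lower.

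The height loci of the name-matched list did not pass, which says nothing of height genes outside that list. Of 15 members, 0 were past the threshold in limma, 1 had an unadjusted p under 0.05, and the median was -0.04, the same as over all genes. That member was phytochrome B1 (PhyB1, Zm00001d028905), a light receptor that limits elongation, with 11 to 24.5 FPKM (median 14.1) in low and 15.1 to 31.4 (median 20.1) in middle stems. The groups overlapped and the difference was 0.48 ± 0.14 (adjusted p = 0.0539). It was past the threshold with median-of-ratios scaling, quantile normalization or no filter, and without low jointing 1 or low big flare 1 (0.0444 and 0.0375). Over all alternatives its adjusted p ran from 0.018 to 0.143. Phytochrome B2 (Zm00001d047632) differed by 0.35 ± 0.17 (adjusted p = 0.298).

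The gibberellin synthesis genes Dwarf1 and Dwarf3 varied more between libraries than the DELLA genes. The GA 3-oxidase Dwarf1 (Zm00001d039634), which makes active gibberellin, ran from 0.43 to 50.7 FPKM in low and from 0.21 to 16.8 in middle stems (-0.90 ± 0.61, adjusted p = 0.487). Dwarf3 (d3, Zm00001d045563), an earlier oxidase of the pathway, ran from 12.4 to 217 and from 12 to 157 FPKM (-0.52 ± 0.61, adjusted p = 0.731). The DELLA genes DWARF8 (Zm00001d033680) and d9 (Zm00001d013465) were at 69 to 147 and 80.9 to 144 FPKM in low and at 76.1 to 186 and 83 to 142 in middle stems. Their differences were 0.09 ± 0.21 and -0.01 ± 0.20 (adjusted p = 0.885 and 0.999). Anther ear1 (Zm00001d032961), the first committed enzyme of gibberellin synthesis, differed by -0.33 ± 0.36 (adjusted p = 0.702). The other 8 members, kaurene synthase 2 (Zm00001d029648), the partial DWARF8 match Zm00001d052126, the brassinosteroid genes DET2 (Zm00001d042843), CYP85A1 (Zm00001d033180) and CYP90B14v2 (Zm00001d028325), the G protein subunit gene ct2 (Zm00001d027886), liguleless2 (Zm00001d042777) and the auxin carrier PIN1d (Zm00001d052442), had adjusted p between 0.508 and 0.98.

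In the wider gibberellin list, 2 of 39 members passed (5.1%), both matches of the receptor GID1L2 and both higher in the middle hybrid. Zm00001d037288 had 7.17 to 25.7 FPKM in low and 19.6 to 123.5 in middle stems, the highest at tasseling (1.42 ± 0.24, adjusted p = 0.00237). Zm00001d020738 had 5.16 to 12.1 FPKM in low and 14.6 to 30.4 in middle stems with no overlap (1.02 ± 0.18, adjusted p = 0.00386). The brassinosteroid list had 1 of 18 members past the threshold, a receptor match (Zm00001d014769) listed at 0 in all low libraries and at 0.22 to 3.71 FPKM in the middle ones (adjusted p = 0.00107). Of 39 cytokinin genes, 0 passed in limma, and 3 had an unadjusted p under 0.05.

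All 4 of 99 auxin genes past the threshold (4%) were lower in the middle hybrid. IAA24 (Zm00001d018973), an Aux/IAA repressor of auxin responses, had 26.6 to 75.2 FPKM (median 51.8) in low and 7.78 to 31.2 (median 12.4) in middle stems. Middle jointing 2 was the highest middle library, and 5 of 6 low libraries exceeded it (-1.80 ± 0.30, adjusted p = 0.00211). In the high hybrid IAA24 was at 23.4 to 85.8 FPKM. An auxin-repressed protein gene (Zm00001d005804) had 2.93 to 72.7 FPKM in low and 0.64 to 4.99 in middle stems (-2.80 ± 0.37, adjusted p = 0.000356).

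Ethylene genes had 2 members higher and 3 lower of 73, or 4 and 3 with either other scaling. An ACC oxidase gene (Zm00001d016679), of the last step of ethylene synthesis, had 12 to 19.6 FPKM in low and 4.83 to 8.96 in middle stems (-1.19 ± 0.18, adjusted p = 0.00117). The ethylene-responsive transcription factor 4-like gene Zm00001d026271 had 58.9 to 110 FPKM in low and 8.99 to 56 in middle stems, and both tasseling libraries of the middle hybrid were the lowest (9.31 and 8.99; -1.42 ± 0.23 over the stages, adjusted p = 0.00203). Neither overlapped. Dehydrin 13 (Zm00001d033483), a protein of drying tissues, was the 1 of 19 abscisic acid and dehydration genes past the threshold. It had 162 to 536 FPKM in low and 51.1 to 111 in middle stems (-1.52 ± 0.27, adjusted p = 0.00304). Of 25 jasmonate genes, 2 passed (8%), both higher, and these calls (Zm00001d035382 and Zm00001d033623) were lost in 9 and 10 of 29 alternatives.

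Photosynthesis genes stood mostly above 0 without passing singly. Of 66 members, 62 were above 0 with a median of 0.58 log2 units, against -0.04 over all genes, and 2 passed (3%). By stage the medians were 0.35 at jointing, 0.77 at big flare and 0.67 at tasseling, beside 0, -0.01 and -0.10 for all genes. The summed FPKM of the list was 7544 and 20952 in the low and 10566 and 20284 in the middle libraries at jointing, so the hybrids overlapped there. At big flare it was 5665 and 9805 against 13727 and 10374, and at tasseling 8476 and 6540 against 12185 and 12610, so each middle library was higher at those stages. In bulk stems, a different share of green cells and different RNA per cell cannot be told apart. The part that this list's level has in other differences was not tested. The oxygen-evolving complex gene Zm00001d027422 had at most 18 FPKM in low and 9.04 to 18.6 in middle stems (0.98 ± 0.24, adjusted p = 0.0305). That call was lost (0.0623 to 0.0872) without low big flare 1, either low tasseling library, middle jointing 2, middle big flare 2 or either middle tasseling library. It was also lost with a pseudocount of 5 or with the 12 libraries alone (0.00164 to 0.147 over the alternatives). The other was a Rubisco large subunit match (Zm00001d045698, adjusted p = 0.0149 over the stages). It was listed at 0 except in the middle big flare libraries (23.9 and 5.14 FPKM), and passed the filter only through them. It did not pass with a pseudocount of 5, with the 12 libraries alone or without low jointing 2 and low big flare 1, and its adjusted p ran from 3.48e-05 to 0.307 over the alternatives.

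Lignin genes leaned the same way at the later stages. The 48 members had a median of -0.05 at jointing, 0.24 at big flare and 0.64 at tasseling, and 34 were above 0 over the mean of the stages (median 0.28), but 1 passed (2.1%). It was a phenylalanine ammonia-lyase gene (Zm00001d051161), the entry enzyme of lignin and phenolic synthesis, with 382 and 1861 FPKM in low jointing, 1058 and 513 in low big flare and 224 and 151 in low tasseling libraries. Middle stems had 1335 and 1955, 3077 and 3399, and 860 and 1353 FPKM. The middle libraries were higher than the low ones at big flare and tasseling and overlapped with them at jointing (1.87 ± 0.48, adjusted p = 0.0341). The call was lost (0.0579 to 0.0996) without any 1 of the 6 middle libraries, low jointing 1, low big flare 2 or either low tasseling library, and with no filter (0.0107 to 0.0996 over the alternatives).

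Wall enzymes and sugar genes changed in small numbers. Of 50 pectin genes, 4 passed (8%), all higher in the middle hybrid. The pectinesterase gene Zm00001d048648 had 0 to 1.35 FPKM in low and 1.55 to 10.8 in middle stems without overlap (2.18 ± 0.29, adjusted p = 0.000366). Another, Zm00001d033566, was listed at 0 in all low libraries and read 63.8 and 51.7, 0.56 and 95.3, and 22.5 and 0 FPKM in the middle libraries from jointing to tasseling (adjusted p = 0.0187). It did not pass with the 12 libraries alone, or without low jointing 2 and low big flare 1, and its adjusted p ran from 0.000658 to 0.082 over the alternatives. Of 26 expansin genes, whose products loosen walls, 0 passed and 4 had an unadjusted p under 0.05 in limma, and 1 was higher with either other scaling. Of 46 xyloglucan and xylan genes 2 were higher (4.3%). Of 28 secondary wall and xylem genes 1 was higher and 1 lower (7.1%), and of 19 cellulose synthase genes 1 was lower (5.3%). The cellulose synthase call (Zm00001d039660) was lost in 16 of 29 alternatives. The xyloglucan and xylan calls (Zm00001d044744 and Zm00001d037656) were lost in 8 and 11, and the lower xylem gene (Zm00001d049109) in 14. The higher xylem gene (Zm00001d017834) passed in every alternative.

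Among 78 sugar genes, 3 were higher and 4 lower, or 4 and 3 with either other scaling. The cell wall invertase Incw4 (Zm00001d001941), which splits sucrose outside the cell, was steady at 7.28 to 8.43 FPKM in low stems and at 13.7 to 34.3 in middle stems, the highest at tasseling with 34.3 and 30 (1.21 ± 0.16, adjusted p = 0.000255). A sucrose synthase gene (Zm00001d029087) had 19.1 to 89.8 FPKM in low and 6.02 to 16.1 in middle stems (-1.88 ± 0.28, adjusted p = 0.00101). Neither gene overlapped between hybrids. Of 27 aquaporin, 31 class III peroxidase and 27 lipid-transfer protein genes, 1 each was lower, and with median-of-ratios scaling the aquaporin count became 1 higher and 0 lower. The aquaporin call (Zm00001d048959, adjusted p = 0.0472 in limma) was lost in 23 of 29 alternatives. The lipid-transfer call (Zm00001d012081) was lost in 1 of 29, and the peroxidase call (Zm00001d014123) passed in every alternative run for it.

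Transcription factor lists had few members past the threshold. Of 63 WRKY genes 4 were lower, of 127 MYB genes 2 were lower (1 higher and 1 lower with median-of-ratios scaling), of 70 NAC genes 2 were higher and 1 lower, and of 24 MADS-box genes 1 was lower. Of 57 KNOX and homeobox genes, 2 were lower, or 2 higher and 2 lower with median-of-ratios scaling. HOX10-like (Zm00001d049529), a leucine zipper homeobox match, had 1.3 to 3.3 FPKM in low and at most 0.68 in middle stems (-1.15 ± 0.18, adjusted p = 0.00154). The homeobox gene Zm00001d028304 had 3.36 to 11.4 FPKM in low and 0.4 to 4.14 in middle stems (-1.80 ± 0.33, adjusted p = 0.00428). Root markers and pollen and anther markers had 0 of 6 and 0 of 10 members past the threshold in limma, with 3 and 0 at an unadjusted p under 0.05. With median-of-ratios scaling 1 root marker was higher.

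**Figure D4:**
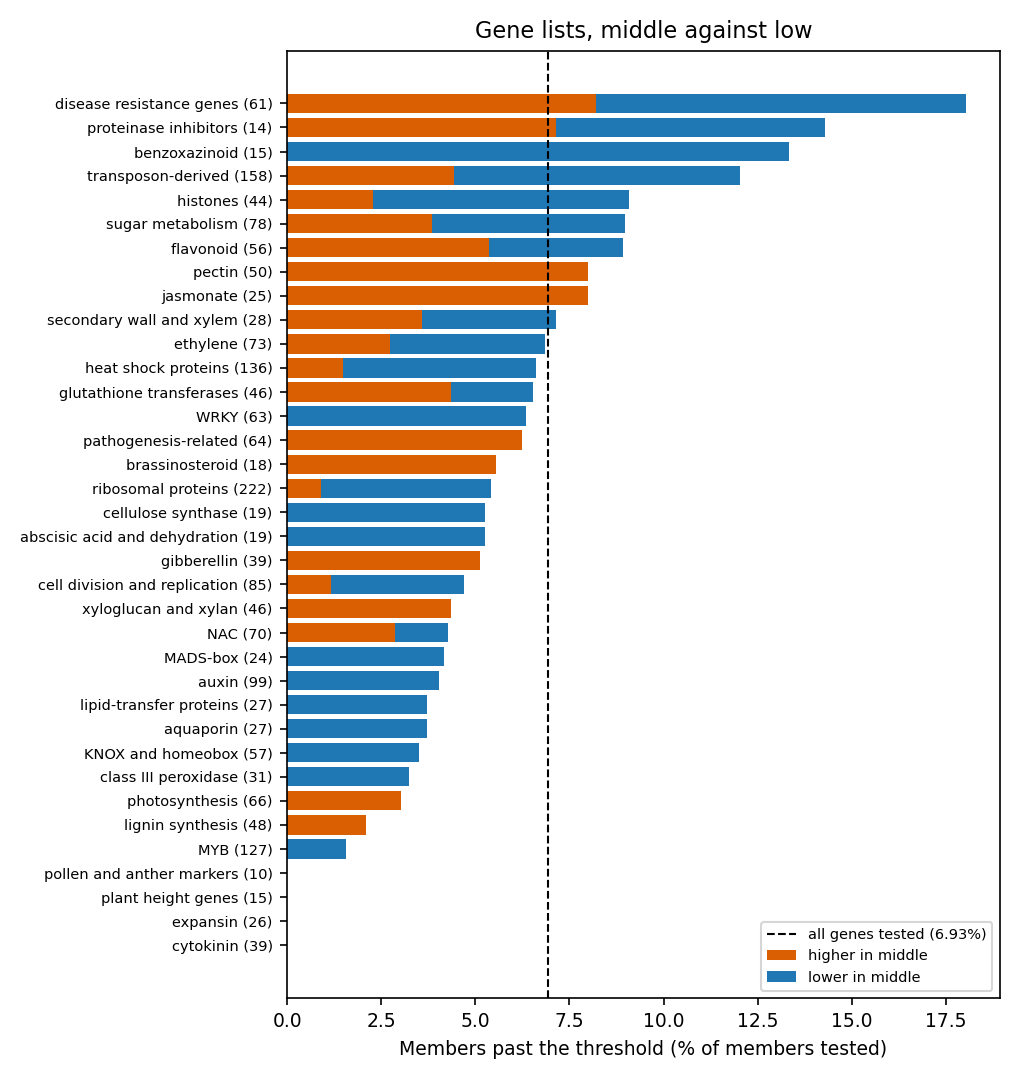
Share of each gene list past the threshold in middle against low, in percent of the members tested (their number in brackets), for lists with at least 10 members. Orange is higher and blue lower in the middle hybrid, and the dashed line is the 6.93% of all genes tested. Disease resistance genes have the largest share among these lists, at 18%.

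Loci with the identifier prefix BGI_novel_G, outside the reference gene models, were frequent among the genes past the threshold. Of 1562 such loci tested, 329 passed (21.1%), 119 higher and 210 lower, against 6.1% of the 25230 other genes. The difference between these shares was not tested.

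Within single stages, the hybrids differed in 506 genes at jointing (1.89%), 647 at big flare (2.41%) and 684 at tasseling (2.55%). The jointing genes split into 170 higher (0.635%) and 336 lower (1.25%) in the middle hybrid. The big flare genes split into 218 higher (0.814%) and 429 lower (1.6%), and the tasseling genes into 185 higher (0.691%) and 499 lower (1.86%). These counts rest on 2 libraries a side and a spread shared by all 18 libraries. Fitted on the 4 libraries of a stage alone, 18, 0 and 344 genes passed in limma, with 2061, 2160 and 3720 at an unadjusted p under 0.05. The jointing count became 268 without low jointing 1, 329 without middle jointing 1 and 293 without middle jointing 2. That of big flare became 429 without low big flare 2 and 377 without middle big flare 2. That of tasseling became 455 and 361 without low tasseling 1 or 2, and 374 and 383 without middle tasseling 1 or 2. Of the 1078 genes past the threshold at any stage, 279 passed at all 3 stages, 201 at exactly 2 and 598 at exactly 1. All 279 kept their sign, 50 higher and 229 lower. They included the antiporter Zm00001d028330, the actin-depolymerizing factor gene Zm00001d034326, and the dnaJ gene Zm00001d029722. At tasseling the median of all genes was -0.098, and 0.006 with median-of-ratios scaling, which moved the counts there to 189 higher and 435 lower.

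A gene that passes at 1 stage alone is not shown to differ between stages, and the interaction of hybrid and stage was tested for that. In limma's moderated F test, 15 genes passed (0.056%), and 1179 had an unadjusted p under 0.05. All 15 also passed in the mean of the stages. The filter asked for 1 FPKM in 2 libraries, so a gene on in a single group could enter the test through that group alone. Where both libraries of a group were listed at 0 they added no spread, which can make the p-value too small. Leaving out low jointing 1 or low jointing 2 left 9 genes each, and leaving out middle jointing 2 gave 30.

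Some loci were on in middle stems at big flare alone. The loci BGI_novel_G000490, BGI_novel_G000492 and BGI_novel_G000495, all matches of the transposase-derived nuclease HARBI1, read 28.7 and 18.6, 28 and 16.7, and 20 and 9.73 FPKM in the middle big flare libraries. In the other 10 libraries they were at most 0.32, 0.69 and 0 FPKM, and the high hybrid was listed at 0 for all 3 loci (interaction adjusted p = 0.000273, 0.00204 and 0.00227). Alike matches of 1 nuclease may share reads, so they are not 3 independent measurements. All 3 reached 1 FPKM in the middle big flare libraries alone, and so passed the filter only through them. Their p-values are therefore no separate support for the high values in the middle big flare libraries. BGI_novel_G001015, a CCCH zinc finger match, read 32.2 and 21.6 FPKM there and at most 2.22 in the other 10 libraries (adjusted p = 0.0171).

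Other genes were on in the middle hybrid from big flare onwards. Of these, BGI_novel_G001576 and Zm00001d051384 reached 1 FPKM in the later middle libraries alone, and passed the filter only through them. BGI_novel_G000367, which has no informative name, read 0.53 and 0.56 FPKM in middle jointing, 69.7 and 59.7 in middle big flare and 47.5 and 35.8 in middle tasseling libraries. It was at most 0.25 in the low hybrid and 25.4 to 84.1 in all high libraries (adjusted p = 7.26e-05). BGI_novel_G001576, a DEAD-box RNA helicase match, read 5.78, 5.04, 4.82 and 7.3 FPKM in the 4 later middle libraries and was listed at 0 elsewhere (adjusted p = 0.0128). The cortical cell-delineating protein gene Zm00001d051384 read 2.36 and 2.39 FPKM in middle big flare libraries and 8.89 and 5.29 in middle tasseling ones, and was listed at 0 elsewhere (adjusted p = 0.0258).

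In 4 genes without an informative name the middle hybrid was on at jointing alone. Except for Zm00001d031693, they passed the filter only through the middle jointing libraries. Zm00001d031693 read 25.6 and 25.2 FPKM there and was listed at 0 in the other middle and all low libraries, while the high hybrid had 7.17 to 37.1 (interaction adjusted p = 0.00204). Zm00001d002280 read 10.1 and 7.3 FPKM (adjusted p = 0.00204), Zm00001d017991 5.02 and 5.37 (adjusted p = 0.00647) and Zm00001d012333 7.98 and 13.4 (adjusted p = 0.0125), with the low hybrid at most 0.2.

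In the other 4 genes the low hybrid was on at jointing and big flare. The estimate was below 0 at every stage for Zm00001d048770 and Zm00001d018648. For Zm00001d039524 and BGI_novel_G000538 it was above 0 at jointing, without passing the threshold there, and below 0 later. A CACTA transposon protein gene (Zm00001d039524) had 57.8 to 98.4 FPKM in all low libraries, 104 and 106 in middle jointing, 71.5 and 33.4 in middle big flare and 1.05 and 1.69 in middle tasseling libraries. Its difference was 0.52 ± 0.56 at jointing, -0.55 ± 0.56 at big flare and -5.02 ± 0.56 at tasseling (interaction adjusted p = 0.0437). Zm00001d048770 was listed at 0 in every middle and high library and had 26.3 to 64.2 FPKM in low stems at jointing and big flare but 3.81 and 3.08 at tasseling (adjusted p = 0.00801). It passed the filter only through the low libraries, and the groups listed at 0 added no spread. Zm00001d018648 had 16.3 to 35.1 FPKM in low stems at jointing and big flare and 0.53 and 0.89 at tasseling, against at most 0.28 in the middle (adjusted p = 0.0258). BGI_novel_G000538 was at 2.8 and 2.04 FPKM in middle jointing libraries, listed at 0 in the later middle ones, and at 1.41 to 5.48 in low stems (adjusted p = 0.0437). Its difference was 0.41 ± 0.29 at jointing, -2.04 ± 0.29 at big flare and -2.42 ± 0.29 at tasseling. The genes of the interaction without an informative name were chosen after their values were seen.

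**Figure D5:**
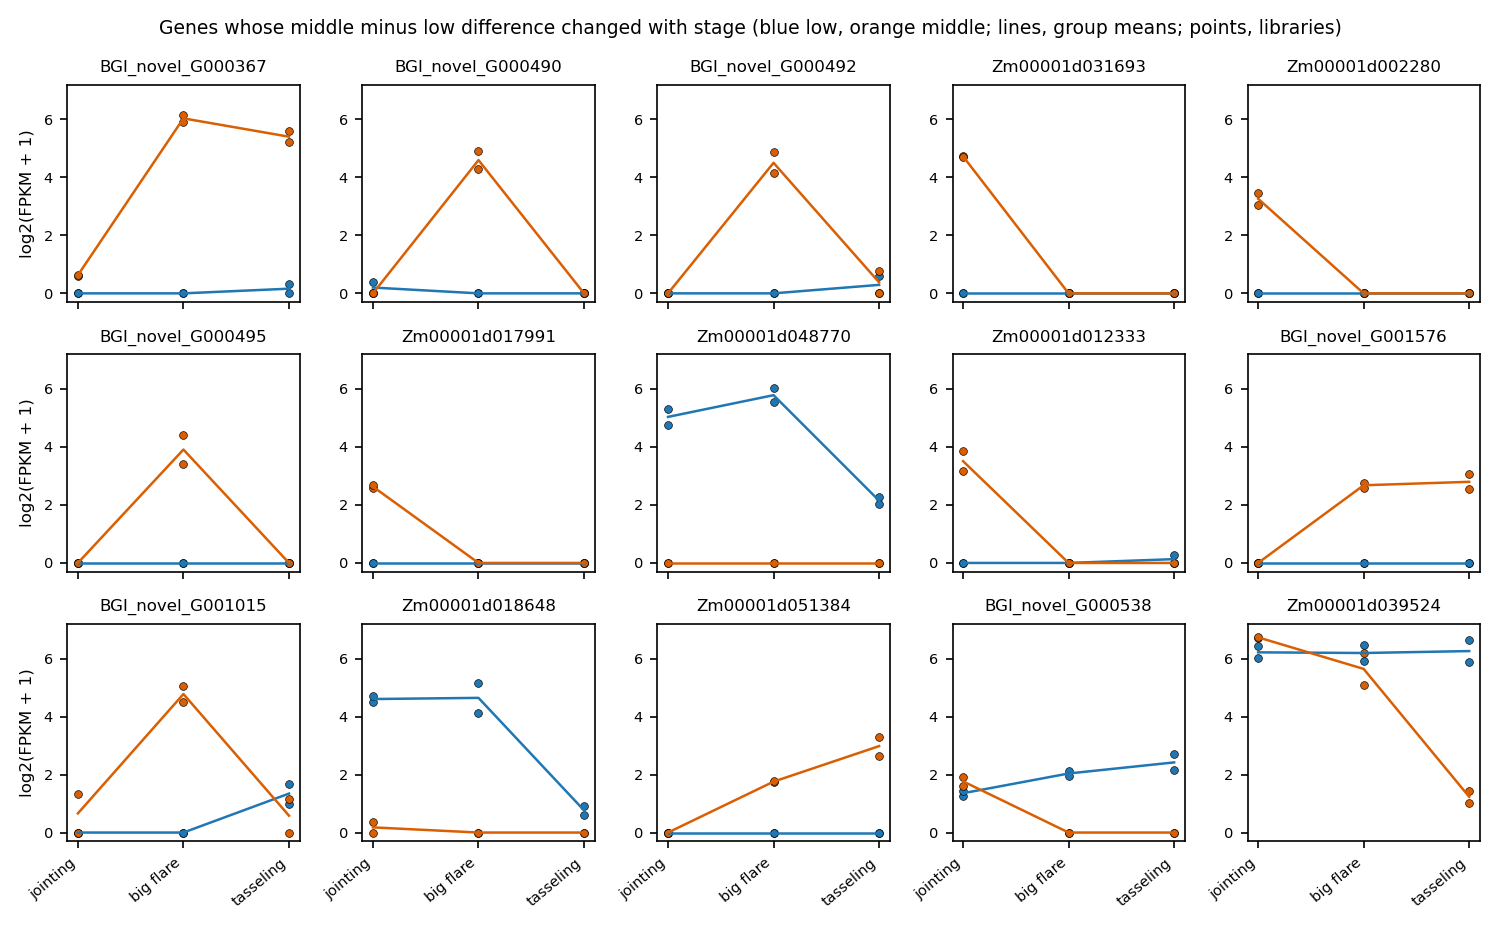
Level of the 15 genes past the threshold in the test of hybrid by stage, as log2(FPKM + 1), at jointing, big flare and tasseling. Points are libraries, lines join group means, blue is the low and orange the middle hybrid. In most panels 1 hybrid stays at or near 0 and the other is on at some stages alone.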

How the data were processed

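The authors deposited FPKM values of 34474 genes in 18 libraries of poly-A RNA. The tools TopHat2, Cufflinks 2.2.1, Cuffdiff and DESeq 1.28.0 and the build B73 RefGen_v4 are named, per the submitters' processing notes, with no role or order. The kit named in the labels' protocols does not mark strand, so overlapping genes on opposite strands cannot be told apart. Because FPKM is scaled to the library, very abundant genes can shift the rest, and the top 10 genes made up 5.67% to 9.36% of the summed FPKM in the 12 libraries compared.

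The test used log2(FPKM + 1) and limma 3.58.1 (R 4.3.3). It covered 26792 genes that reached 1 FPKM in 2 libraries or more, and left out 7682. A gene on in a single hybrid could enter the test through the libraries of that hybrid alone. Its p-value is then no separate support for the high values there. The fit held 9 group means and 9 residual degrees of freedom, a variance trend, and Benjamini-Hochberg adjustment over all genes. Middle minus low was tested as the mean of 3 stages, at each stage and as an interaction with stage. The log2(FPKM + 1) scale understates changes of low genes. Errors after ± are SE for log2 differences and SD for FPKM. The procedure was tested on simulated data.

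Relative depth came from the ratios of low FPKM values between libraries. Of 306 ordered pairs of libraries, 95.4% had their commonest ratio no further than 0.05 log2 units from the fitted one.

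Names are the best protein matches in the deposited table (34351 genes, 16290 informative). Symbols of 17823 genes were looked up by protein accession in the RefSeq gene table (assembly Zm-B73-REFERENCE-NAM-5.0), for names alone. The comparison and its 37 gene lists, matched by name, were chosen with earlier results of these data known. Named genes were the 8 largest changes each way with the same sign at each stage, at least 5 FPKM and an informative name, the 5 largest differences in FPKM each way, the 2 smallest adjusted p of each list, all height loci, the 5 smallest interaction p with an informative name, and per stage the 3 largest changes each way among such interaction genes. Some of these were left out of the text. Alternatives were another pseudocount, filter, scaling, variance model and set of libraries, a replicate block, and each library left out.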

Additional observations from a re-analysis of the deposited data

Results flagged for a closer look

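The middle minus low difference changed with stage in 15 genes by limma's interaction test, each with 2 libraries per group. The interaction adjusted p was 7.26e-05 for BGI_novel_G000367, 0.000273 for BGI_novel_G000490 and 0.00227 for BGI_novel_G000495. It was 0.00204 for BGI_novel_G000492, Zm00001d031693 and Zm00001d002280. For Zm00001d017991 it was 0.00647, for Zm00001d048770 0.00801, for Zm00001d012333 0.0125, for BGI_novel_G001576 0.0128 and for BGI_novel_G001015 0.0171. Zm00001d018648 and Zm00001d051384 both had 0.0258, and Zm00001d039524 and BGI_novel_G000538 both had 0.0437.

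The 5 genes BGI_novel_G000367, BGI_novel_G000490, BGI_novel_G000495, Zm00001d002280 and Zm00001d031693 passed under every alternative run for them, with adjusted p up to 0.0411. The filter of 1 FPKM in at least 6 libraries left out BGI_novel_G000490, BGI_novel_G000495, Zm00001d002280, BGI_novel_G000492 and Zm00001d017991. It also left out Zm00001d012333, BGI_novel_G001576 and Zm00001d051384. All of these were run under 27 alternatives, so whether they hold under that filter was not tested. BGI_novel_G000367 and Zm00001d031693 were run under 28. With a pseudocount of 0.1, BGI_novel_G000492 (0.000405 to 0.204 over its alternatives) and Zm00001d017991 (1.26e-05 to 0.0682) did not pass, and they passed under the others. Zm00001d012333 was also lost without low jointing 1 or 2 (0.00159 to 0.204). BGI_novel_G001576 was lost without low jointing 1 or 2 or middle jointing 1 (0.000523 to 0.104). Zm00001d048770 was lost without low tasseling 2 or either middle tasseling library (0.000887 to 0.311). Both were also lost with a pseudocount of 0.1 or with the 12 libraries alone. Without low jointing 2 and low big flare 1, Zm00001d012333 and BGI_novel_G001576 were lost too.

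BGI_novel_G001015 was lost without any low library other than low tasseling 2 and without either middle big flare library (0.000613 to 0.292). Zm00001d051384 passed in 11 of 27 alternatives (0.00091 to 0.125) and was lost without either low jointing or tasseling library, any high big flare or tasseling library, or any middle library other than big flare 2 and tasseling 2. Zm00001d018648 passed in 12 of 28 (0.0125 to 0.448) and was lost without either low jointing or tasseling library, or any high or middle library of big flare or tasseling. Zm00001d039524 passed in 11 of 28 (0.019 to 0.242) and was lost without any low library, either high big flare library, or any middle library other than big flare 2. It was also lost with no variance trend. BGI_novel_G000538 passed in 6 of 28 (0.0125 to 0.198) and was lost without any 1 library other than low tasseling 1. A pseudocount of 0.1 also lost BGI_novel_G001015, Zm00001d051384 and Zm00001d018648, and a pseudocount of 5 Zm00001d039524 and BGI_novel_G000538. With the 12 libraries alone all of them but Zm00001d039524 were lost, and without low jointing 2 and low big flare 1 all but Zm00001d018648. The filter of 6 libraries lost Zm00001d018648, Zm00001d039524 and BGI_novel_G000538. The replicate block lost Zm00001d051384, Zm00001d018648 and BGI_novel_G000538.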

How the results depend on the processing

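The count over the mean of the stages stayed within 1.5 times of 1856, from 1383 without low jointing 1 to 1959 with quantile normalization. Of 83 named genes past the threshold, 50 passed under every alternative run and 33 were lost under at least 1. Some of the 50 were left out by the filter of 6 libraries, so they were not run under it. Fitted on the 4 libraries of a stage alone, the counts were 18 at jointing, 0 at big flare and 344 at tasseling. Leaving out 1 library gave 268 to 523 genes at jointing, 377 to 647 at big flare, 361 to 680 at tasseling and 9 to 30 for the interaction. The interaction count was 23 with a pseudocount of 5, 68 with no filter and 4 with 6 libraries required at 1 FPKM. The causes were not tested, beyond the fewer genes or samples in those fits.

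The labels do not say whether replicate numbers mark a shared batch, and no constant pairing was seen. Deviations from the group means correlated above 0.1 in 8 of 36 pairs of groups (-0.43 to 0.29). Between low and middle the correlation was 0.26 at jointing, -0.43 at big flare and 0.18 at tasseling. With the replicate number as a block the counts were 1737 over the mean of the stages, 444, 613 and 637 at the stages and 13 for the interaction, and benzoxazinless1 (Zm00001d048709) had an adjusted p of 0.0527 (0.00643 to 0.114 over the alternatives).

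Reversals occurred among height loci that were not past the threshold. Zm00001d013465 was at 0.063 with median-of-ratios scaling and -0.144 to 0.132 without 1 library. Zm00001d042777 was at -0.029 with a pseudocount of 5, -0.494 without low jointing 2 and low big flare 1, and -0.289 to 0.363 without 1 library. Zm00001d033180 was at 0.073 without that pair and -0.587 to 0.144 without 1 library. Zm00001d052442 was at 0.164 with a pseudocount of 0.1, 0.06 with quantile normalization and -0.3 to 0.218 without 1 library. Without 1 library, Zm00001d029648 was at -0.153 to 0.412, Zm00001d033680 at -0.049 to 0.228 and Zm00001d045563 at -1.037 to 0. The fit without low jointing 2 and low big flare 1 was added after seeing the data. Without counts, the precision of low values is unknown.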
